A study of Mus musculus with 16 samples.

Results

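The transcripts described here are those of 9 enzymes that build triglyceride in the glycerol-3-phosphate pathway and beside it: Gpam, Agpat2, Agpat3, the lipins Lpin1, Lpin2 and Lpin3, Dgat1, Dgat2 and Mogat1. They were chosen by gene symbol among the 16973 genes of the count table, and all 9 were found. They were chosen because Lpin1 was known to move opposite ways in the mouse lines, so their knockout values are given as a description, with no p-value. The 16 livers came from male C57BL/6 mice and form 4 groups of 4: livers labelled RPN11 hepatocyte-specific knockout (RPN11 HKO), their RPN11 flox/flox controls, METTL3 hepatocyte-specific knockout livers (METTL3 HKO) and their METTL3 flox/flox controls. Both knockouts carry a floxed gene that is deleted in hepatocytes, and each is compared with flox/flox mice of its own line. RPN11, encoded by Psmd14, is the deubiquitylating enzyme of the proteasome, and METTL3 is the catalytic subunit of the N6-methyladenosine writer complex of mRNA. The title of the series names nonalcoholic fatty liver disease as its subject. The sources used here do not state the Cre driver, diet, age or time of day at collection.

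Triglyceride is made at the endoplasmic reticulum by adding fatty acyl chains one after another to glycerol-3-phosphate. GPAM, at the outer mitochondrial membrane, adds the first chain, and AGPAT2 adds the next to give phosphatidate. The lipins then remove the phosphate to give diacylglycerol, from which both triglyceride and phospholipids are made, and the DGAT enzymes add the last chain. Lipin 1 also enters the nucleus, where it acts with PPARA and PGC-1alpha as a coactivator, and its gene is known to be induced in fasted liver and by glucocorticoids. MOGAT1 makes diacylglycerol by another route, from monoacylglycerol.

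Library totals spanned 20938715 to 27645935 counts in labelled RPN11 HKO, 24516234 to 28212133 in RPN11 flox/flox, 15980959 to 27778135 in METTL3 HKO and 25062848 to 29029592 in METTL3 flox/flox livers. Levels are CPM (counts relative to library size), scaled with TMM factors over all 16 livers. Psmd14 stood at 77.8 ± 12.4 CPM in livers labelled RPN11 HKO and 78.2 ± 3.62 CPM in RPN11 flox/flox livers (SD, n = 4 each), with a log2 fold change of 0.01 (edgeR quasi-likelihood test, adjusted p = 0.976). It was not lower, and because whole-gene counts hold exons outside a deleted part they do not check the deletion, so these livers are called labelled RPN11 HKO throughout. Mettl3 stood at 6.43 ± 0.165 CPM in METTL3 HKO and 15.8 ± 1.999 CPM in METTL3 flox/flox livers (SD, n = 4 each), a log2 fold change of -1.29 ± 0.18 (SE, edgeR adjusted p = 0.000647). Liver 4 of each knockout group stood apart in its markers. Markers of brain other than Slc1a2, which pericentral hepatocytes also express, summed to 548 CPM in labelled RPN11 HKO liver 4 and 381 CPM in METTL3 HKO liver 4, against 14.5 to 35.3 CPM in the other livers. Leaving out Slc1a2 was decided after its level was seen. Bile duct markers summed to 618 and 537 CPM in the same livers, against 197 to 253 CPM in the other METTL3 HKO livers and 62.3 to 142 CPM in all remaining livers. Results are therefore also given without both. In bulk RNA, fewer cells of a type and less RNA per cell cannot be told apart. Labelled RPN11 HKO livers 1 and 3 were the closest pair of libraries, but they differed by more than sampling noise (8.06 per gene on the chi-square scale, where noise alone gives about 1), and both were kept. METTL3 HKO liver 1 was the farthest from its group, at 201 to 277 on that scale from METTL3 HKO livers 2, 3 and 4. Those livers differed from each other by 61.75 to 95.4. METTL3 HKO liver 1 was kept as well. The labels number the livers without saying that each is a separate animal, so errors cover only the spread between these livers.

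In the labelled RPN11 HKO livers, Lpin1 was the member called higher, at 2.22 times the RPN11 flox/flox level, while Agpat3 was called lower and Gpam, Agpat2 and Dgat2 were lower in every liver without passing the threshold. In the METTL3 HKO livers, 5 members were called lower: Lpin1, 4.29-fold lower than in METTL3 flox/flox livers, Lpin2, Dgat1, Dgat2 and Agpat3. Lpin1 thus lay on opposite sides of its controls in the lines. Calls are an adjusted p under 0.05 over all genes tested (edgeR quasi-likelihood test, Benjamini-Hochberg). In the RPN11 line 1 member of 9 tested was called higher, where 1.99% of all genes were, and 1 was called lower, where 2.82% were (4.81% in all). In the METTL3 line, 8 members were tested, 0 were called higher (15.2% of all genes) and 5 lower (15.3%, 30.5% in all). Of the members tested, 1 lay wholly above its controls in the RPN11 line (7.56% of all genes) and 4 wholly below (10.1%), while 5 lay wholly below in the METTL3 line (16%). The median log2 fold change of the members was -0.54 for RPN11 (0.03 over all genes) and -0.62 for METTL3 (0.04 over all genes). Without both livers numbered 4, Gpam and Agpat2 were also called lower in the RPN11 line, and the Agpat3 call was lost in the METTL3 line. These shares describe a set chosen on these contrasts and support nothing further.

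**Figure D1:**
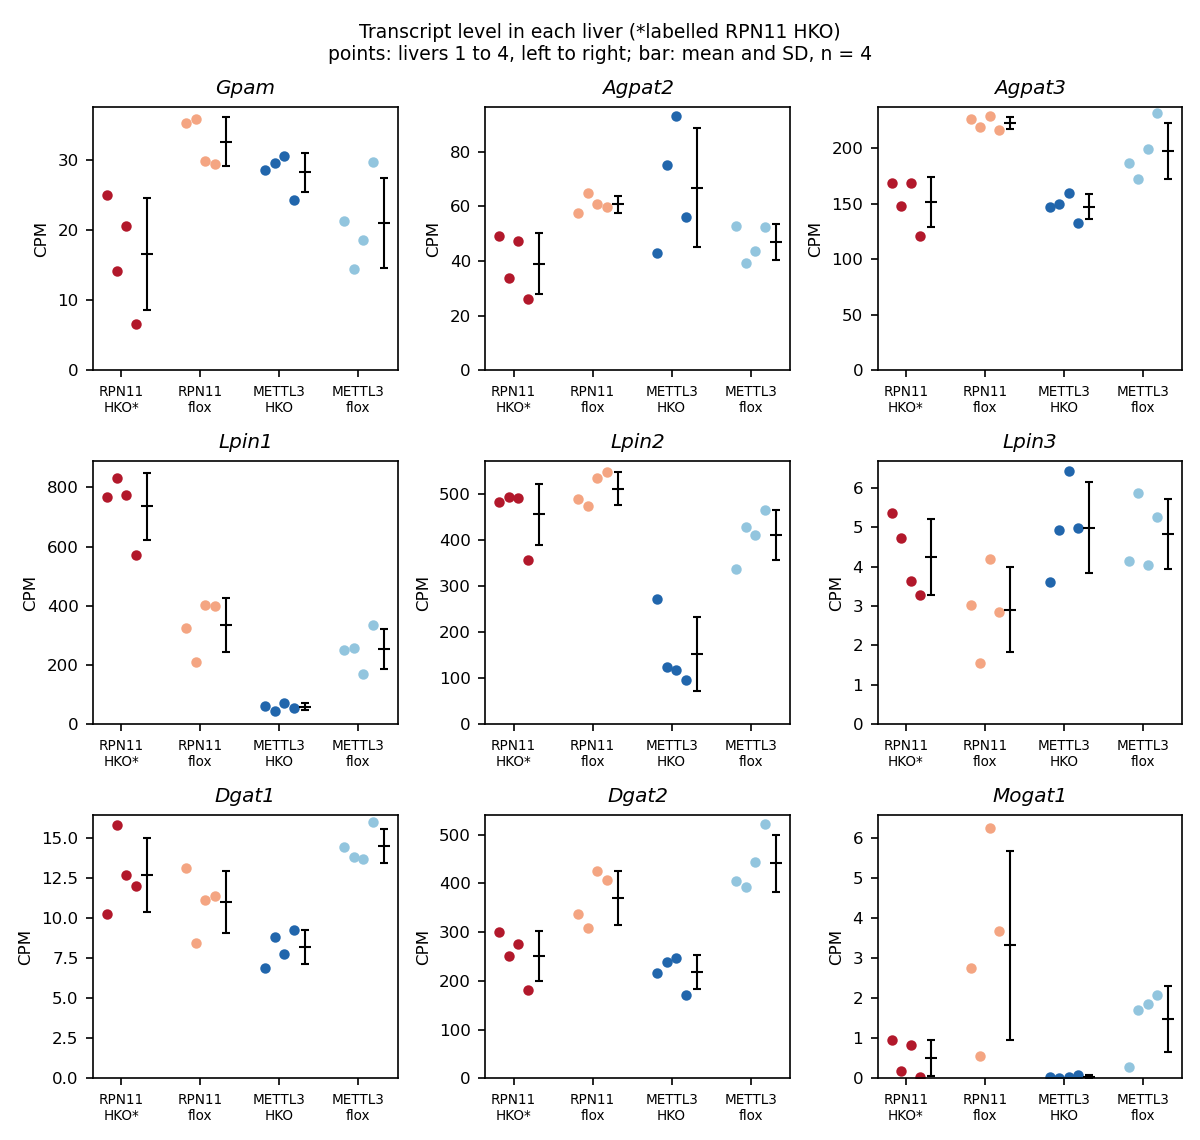
Level of each of the 9 transcripts in CPM (y axes start at 0, own scale in each panel) in livers 1 to 4 of each group, with the mean and SD (n = 4) at the right of each group. Lpin1 spans 573 to 831 CPM in labelled RPN11 HKO livers and 44.6 to 73.15 CPM in METTL3 HKO livers, on opposite sides of the flox/flox livers of both lines.

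The METTL3 comparison depends on how libraries are scaled. The TMM factors were 0.966 in METTL3 HKO liver 1 and 1.22 to 1.46 in METTL3 HKO livers 2 to 4, against 0.883 to 0.936 in METTL3 flox/flox livers. Without scaling factors the median log2 fold change over all genes was 0.46 in the METTL3 line and 0.18 in the RPN11 line, and called genes split into 4077 higher and 789 lower in the METTL3 line (1893 and 1906 with TMM) and 662 and 222 in the RPN11 line (241 and 342 with TMM). Markers of cell types moved in both lines. Hepatocyte markers summed to 96660 to 131500 CPM in labelled RPN11 HKO (117800 to 131500 CPM without liver 4) and 138800 to 165100 CPM in RPN11 flox/flox livers, with no overlap. They summed to 61700 to 142000 CPM in METTL3 HKO and 138600 to 165700 CPM in METTL3 flox/flox livers, which overlapped. Bile duct markers summed to 90.4 to 618 CPM in labelled RPN11 HKO (at most 102 CPM without liver 4) and 62.3 to 82.5 CPM in RPN11 flox/flox livers, and to 197 to 537 CPM in METTL3 HKO and 66.5 to 142 CPM in METTL3 flox/flox livers. Macrophage markers summed to 288 to 397 CPM in METTL3 HKO and 110 to 154 CPM in METTL3 flox/flox livers, and endothelial and stellate markers to 366 to 480 CPM in METTL3 HKO and 252 to 328 CPM in METTL3 flox/flox livers. The 6 adipocyte markers in the table summed to 7.66 to 14.1 CPM in METTL3 HKO and 11.2 to 34.5 CPM in METTL3 flox/flox livers, which overlapped; Plin1 had no count in METTL3 HKO or either flox/flox group, and Adipoq had none in METTL3 HKO livers. Skeletal muscle markers were at most 0.267 CPM in any liver. The part of these shifts in the results was not tested.

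Gpam (ENSMUSG00000024978, chromosome 19, 55067268 to 55127238, minus strand, mm10), which adds the first acyl chain, stood at 25, 14.2, 20.6 and 6.68 CPM in labelled RPN11 HKO livers 1 to 4, against 35.4, 35.9, 29.8 and 29.5 CPM in RPN11 flox/flox livers. The groups did not overlap, and labelled RPN11 HKO liver 4, one of the livers that stood apart, was the lowest of all 16. The log2 fold change was -0.97 ± 0.33 (SE) and was not called; without liver 4 it was -0.71 and was called. METTL3 HKO livers held Gpam at 28.7, 29.6, 30.5 and 24.3 CPM, against 21.3, 14.4, 18.65 and 29.7 CPM in METTL3 flox/flox livers. These groups overlapped, as METTL3 flox/flox liver 4 stood among the knockouts, and the log2 fold change of 0.43 ± 0.20 (SE) was not called. It was called at 0.84 without scaling factors, at 0.54 by voom and at 0.64 without METTL3 flox/flox liver 4. The RPN11 effect less the METTL3 effect was -1.40 ± 0.41 (SE, log2), called in 15 of 24 alternatives. That call was lost at -1.26 to -1.44 without labelled RPN11 HKO liver 2, RPN11 flox/flox livers 1, 2 or 3, METTL3 HKO livers 2 or 3, or METTL3 flox/flox livers 1, 2 or 3.

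Agpat2 (ENSMUSG00000026922, chromosome 2, 26593057 to 26604417, minus strand), the main acyltransferase from lysophosphatidate to phosphatidate in liver and fat, stood at 48.95, 33.7, 47.45 and 25.9 CPM in labelled RPN11 HKO livers, against 57.6, 64.9, 60.9 and 59.6 CPM in RPN11 flox/flox livers. All 4 labelled knockouts were lower, with a log2 fold change of -0.63 ± 0.17 (SE) that was not called. It was called in 7 of 17 alternatives, among them at -0.48 without liver 4 and at -0.75 and -0.73 without labelled RPN11 HKO liver 1 or liver 3. METTL3 HKO livers stood at 43.1, 75.1, 92.9 and 56.1 CPM, against 52.7, 39.2, 43.5 and 52.4 CPM in METTL3 flox/flox livers. METTL3 HKO livers 2, 3 and 4 were above every control and liver 1 lay among them, and the log2 fold change of 0.51 ± 0.21 (SE) was not called. It was called at 0.95 without scaling factors, at 0.66 by voom and at 0.68 without METTL3 HKO liver 1. The difference between the lines was -1.15 ± 0.30 (SE, log2), called in 24 of 24 alternatives. Of Agpat2 exons, 3% of the bases are shared with Egfl7 on the opposite strand.

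Agpat3 (ENSMUSG00000001211, chromosome 10, 78269178 to 78352489, minus strand), an acyltransferase of the endoplasmic reticulum and Golgi that prefers polyunsaturated chains, stood at 168, 148, 169 and 121 CPM in labelled RPN11 HKO livers, against 227, 219, 229 and 217 CPM in RPN11 flox/flox livers. Every labelled knockout was lower, the RPN11 flox/flox livers spread by only 5.82 CPM (SD), and the log2 fold change of -0.54 ± 0.11 (SE) was called. Leaving out labelled RPN11 HKO liver 2 or any of the 4 RPN11 flox/flox livers ended the call, at -0.53 to -0.56, as did no filter on low counts. METTL3 HKO livers held Agpat3 at 147, 150.2, 160.0 and 133 CPM, against 187, 172, 199.6 and 232 CPM in METTL3 flox/flox livers. The groups again did not overlap, and the log2 fold change was -0.42 ± 0.14 (SE), called. This call was lost in 10 of 17 alternatives, among them METTL3 HKO livers 2, 3 or 4 or METTL3 flox/flox livers 1, 3 or 4 left out, and without scaling factors the log2 fold change was -0.003.

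Lpin1 (ENSMUSG00000020593, chromosome 12, 16535669 to 16610966, minus strand) stood at 767, 831, 773 and 573 CPM in labelled RPN11 HKO livers, against 324, 209.8, 404 and 400.3 CPM in RPN11 flox/flox livers. Every labelled knockout was higher than every control, and its lowest liver was liver 4. Mean levels were 736 ± 112.5 CPM in labelled RPN11 HKO and 335 ± 90.9 CPM in RPN11 flox/flox livers (SD, n = 4 each), and the log2 fold change was 1.15 ± 0.19 (SE), 1.24 without liver 4. The call held in 16 of 17 alternatives and was lost without RPN11 flox/flox liver 1, at 1.14. METTL3 HKO livers held Lpin1 at 62.7, 44.6, 73.15 and 55.8 CPM, against 252, 258.5, 171 and 335 CPM in METTL3 flox/flox livers. No METTL3 HKO liver came near its controls, with means of 59.1 ± 12.0 CPM in METTL3 HKO and 254 ± 67.1 CPM in METTL3 flox/flox livers (SD, n = 4 each) and a log2 fold change of -2.10 ± 0.22 (SE). It was called in 17 of 17 alternatives, at -1.69 without scaling factors and -2.08 without METTL3 HKO liver 4. The RPN11 effect less the METTL3 effect was 3.24 ± 0.32 (SE, log2), called in 24 of 24 alternatives between 2.98 and 3.40, where 13.1% of all genes were called. In this difference 3 members were called higher (6.96% of all genes) and 2 lower (6.15%).

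Lpin2 (ENSMUSG00000024052, chromosome 17, 71182560 to 71249817, plus strand), the other lipin abundant in liver, stood at 484, 494, 491 and 358 CPM in labelled RPN11 HKO livers, against 490.3, 475, 536 and 548 CPM in RPN11 flox/flox livers. The groups overlapped except for liver 4, and the log2 fold change of -0.15 ± 0.12 (SE) was not called. METTL3 HKO livers stood at 272, 124, 118 and 96.8 CPM, against 338, 429, 412 and 466 CPM in METTL3 flox/flox livers. All 4 knockouts were lower, with METTL3 HKO liver 1 closer to its controls than the other 3. The log2 fold change was -1.43 ± 0.29 (SE), called in 17 of 17 alternatives, and -1.86 without METTL3 HKO liver 1. The difference between the lines was 1.27 ± 0.34 (SE, log2), called except without METTL3 HKO liver 2 or liver 3.

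Lpin3 (ENSMUSG00000027412, chromosome 2, 160880670 to 160906002, plus strand), a lipin of low level in liver, stood at 5.36, 4.72, 3.63 and 3.28 CPM in labelled RPN11 HKO livers, against 3.01, 1.56, 4.19 and 2.855 CPM in RPN11 flox/flox livers. The groups overlapped in both lines, with log2 fold changes of 0.56 ± 0.34 and 0.05 ± 0.28 (SE) for RPN11 and for METTL3. METTL3 HKO livers ran from 3.62 to 6.43 CPM, against 4.05 to 5.87 CPM in METTL3 flox/flox livers.

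The upstream windows of the liver lipin genes, from RefSeq (GRCm38.p6), are shown because these transcripts stood apart in the RPN11 comparison and were both low in METTL3 HKO livers. Each runs from 250 bases before to 50 after the start site, 5′ to 3′ on the gene's own strand. Capitals mark, for Lpin1 (chr12:16610917-16611216, minus strand), AGGTCA, the hexamer bound by many nuclear receptors, at -74 from the start site, and for Lpin2 (chr17:71183282-71183581, plus strand, the first of its start sites), the E-box CACGTG at -9.
Lpin1: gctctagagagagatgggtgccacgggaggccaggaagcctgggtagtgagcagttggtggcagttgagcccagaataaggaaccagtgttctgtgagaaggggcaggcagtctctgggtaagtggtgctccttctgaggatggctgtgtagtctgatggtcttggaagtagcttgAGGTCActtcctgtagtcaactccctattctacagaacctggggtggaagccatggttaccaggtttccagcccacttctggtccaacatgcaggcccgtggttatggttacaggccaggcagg
Lpin2: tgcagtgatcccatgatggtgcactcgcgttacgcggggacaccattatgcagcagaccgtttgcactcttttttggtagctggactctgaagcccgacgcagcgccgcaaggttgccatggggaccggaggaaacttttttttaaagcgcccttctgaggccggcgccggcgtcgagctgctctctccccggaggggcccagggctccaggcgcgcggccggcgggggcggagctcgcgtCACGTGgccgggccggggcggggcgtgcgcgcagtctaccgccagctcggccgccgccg
Searched on both strands, AGGTCA is in 16.3% and CACGTG in 7.15% of 32851 RefSeq windows of this length. The Lpin1 window holds no CACGTG, no TTATGTAA (the D-box, in 0.938% of windows) and no TCACNCCAC (the sterol response element, in 1.24%), and the Lpin2 window holds none of the 3 others. The windows of the other Lpin2 start sites hold none of these sequences. Other members match too: a Lpin3 window holds CACGTG at 22 from the start site, and a Gpam window holds AGGTCA at -196. A match describes letters, not a bound site.

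**Figure D2:**
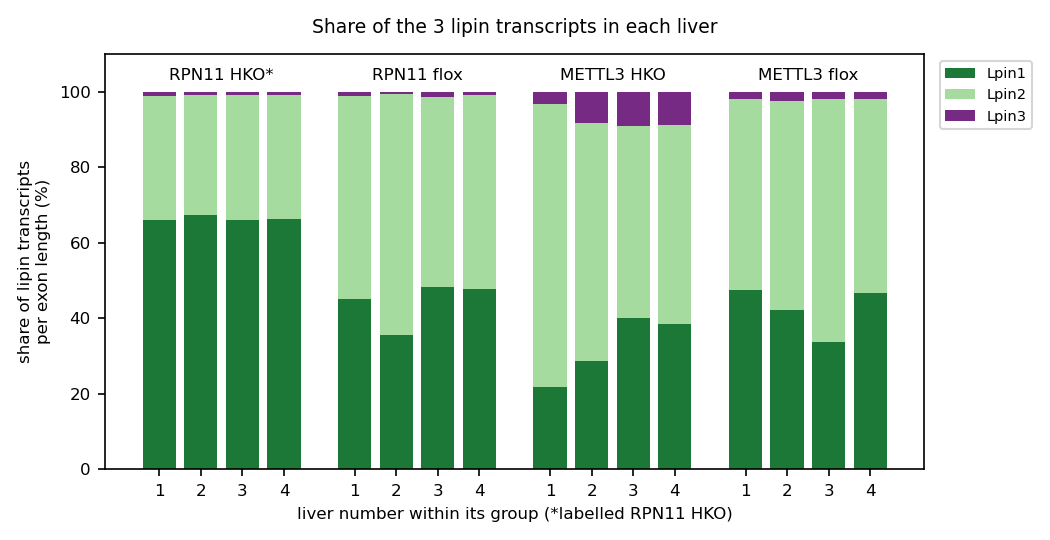
Share of Lpin1, Lpin2 and Lpin3 among lipin transcripts per exon length (y axis, %) in each of the 16 livers (x axis, livers 1 to 4 of each group). Lpin1 takes 65.9 to 67.4% in the labelled RPN11 HKO livers and 21.9 to 48.2% in the other 12.

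Per exon length, the mix of lipins shifted with these levels. The ratio of Lpin1 to Lpin2 was 2.01, 2.13, 1.99 and 2.03 in labelled RPN11 HKO livers, against 0.837, 0.559, 0.954 and 0.924 in RPN11 flox/flox livers. It varied little among the labelled knockouts, with an SD of 0.0621 against 0.180 in RPN11 flox/flox livers. It was 0.292, 0.457, 0.787 and 0.729 in METTL3 HKO livers and 0.943, 0.763, 0.525 and 0.910 in METTL3 flox/flox livers, which overlap. Lpin1 made up 66.4 ± 0.654% of lipin transcripts in labelled RPN11 HKO livers and 44.1 ± 5.83% in RPN11 flox/flox livers (SD, n = 4 each), and the share was 32.3 ± 8.52% in METTL3 HKO and 42.5 ± 6.33% in METTL3 flox/flox livers (SD, n = 4 each). Summed lipin transcript was 115 CPM per kilobase in labelled RPN11 HKO livers and 77.3 CPM per kilobase in RPN11 flox/flox livers, and 19.9 CPM per kilobase in METTL3 HKO and 61.2 CPM per kilobase in METTL3 flox/flox livers. Lpin3 took 7.44% of the mix in METTL3 HKO livers, against 2.14% in METTL3 flox/flox livers. With the longest single transcript in place of all exons the ratio of Lpin1 to Lpin2 was 1.63 in labelled RPN11 HKO and 0.654 in RPN11 flox/flox livers.

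Dgat2 (ENSMUSG00000030747, chromosome 7, 99153658 to 99182719, minus strand), the acyltransferase tied to newly made fatty acid, stood at 299.9, 251, 275 and 180.4 CPM in labelled RPN11 HKO livers, against 337, 309, 425 and 407 CPM in RPN11 flox/flox livers. Every labelled knockout was lower and liver 4 was lowest, but the log2 fold change of -0.54 ± 0.16 (SE) was not called; DESeq2 and voom called it. METTL3 HKO livers held Dgat2 at 216, 238, 247 and 170.2 CPM, against 405, 393, 443 and 523 CPM in METTL3 flox/flox livers. The groups did not overlap, and the log2 fold change of -1.02 ± 0.17 (SE) was called in 17 of 17 alternatives. Dgat2 lay below its controls in every liver of both lines, and the difference between the lines, 0.46 ± 0.24 (SE, log2), was not called by edgeR, though voom called it at 0.51.

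Dgat1 (ENSMUSG00000022555, chromosome 15, 76502015 to 76511953, minus strand), which re-esterifies fatty acids, stood at 10.2, 15.8, 12.6 and 12.0 CPM in labelled RPN11 HKO livers, against 13.1, 8.41, 11.1 and 11.3 CPM in RPN11 flox/flox livers, which overlap (log2 fold change 0.22 ± 0.19, SE, not called). METTL3 HKO livers stood at 6.85, 8.79, 7.77 and 9.22 CPM, against 14.4, 13.8, 13.7 and 15.95 CPM in METTL3 flox/flox livers. All 4 knockouts were lower, with a log2 fold change of -0.82 ± 0.18 (SE), called except without scaling factors, where it was -0.38. The difference between the lines was 1.03 ± 0.24 (SE, log2), called except without scaling factors.

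Mogat1 (ENSMUSG00000012187, chromosome 1, 78510991 to 78538173, plus strand) had 25, 5, 19 and 1 counts in labelled RPN11 HKO livers, against 67, 14, 145 and 80 counts in RPN11 flox/flox livers. The mean was 0.506 CPM in labelled RPN11 HKO and 3.32 CPM in RPN11 flox/flox livers, the groups overlapped, and the log2 fold change of -2.70 ± 0.88 (SE) was not called, though DESeq2 called it. METTL3 HKO livers had 1, 0, 1 and 2 counts, against 7, 44, 42 and 51 in METTL3 flox/flox livers, and it was filtered out of that fit as low. All 4 METTL3 HKO livers were under the limit of 3 counts that a count of 0 allows, so no fold is given. Fits that kept it, 8 of the alternatives, put it lower in METTL3 HKO and called it each time. Apart from the fit with no filter, these kept it only through livers other than METTL3 HKO, where it is higher. Their calls follow in part from that filter and are a description. Mogat1 shares 12.8% of its exon bases with BC035947 on the opposite strand, and without stated strandedness their reads cannot be told apart.

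**Figure D3:**
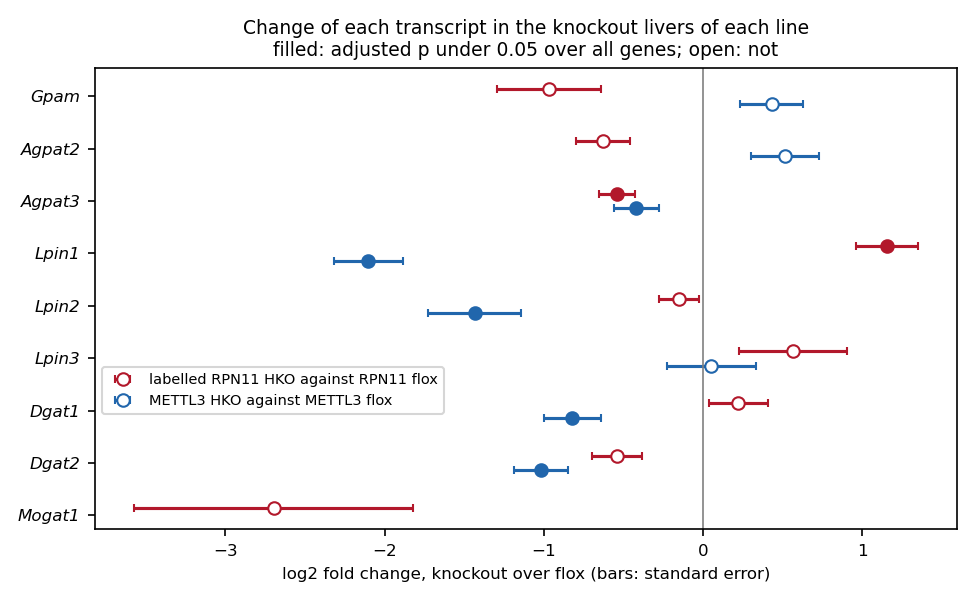
Log2 fold change (x axis, bars are standard errors) of each transcript in labelled RPN11 HKO against RPN11 flox/flox livers and METTL3 HKO against METTL3 flox/flox livers, filled where called. Mogat1 has no value in the METTL3 line because it was filtered. Lpin1 is at 1.15 for RPN11 and -2.10 for METTL3.

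METTL3 writes N6-methyladenosine mostly at DRACH sites, of which GGACT is the common form, so that motif was looked for in the annotated transcript of each gene with the longest coding sequence (GENCODE M21). The called members are shown by the GGACT nearest the stop codon, in capitals, 5′ to 3′ on the gene's strand.
Lpin1: ggaaaggattGGACTcaccagggca
Lpin2: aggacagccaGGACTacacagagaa
Dgat1: tcaaggatatGGACTattcacggat
Dgat2: gataacatctGGACTgcccggcttg
Agpat3: gagcatctagGGACTgtgcttctct
Lpin1 holds 8 copies, 1.43 per kilobase, and this one lies in its coding sequence, as does that of Dgat1. Those of Lpin2, Dgat2 and Agpat3 follow the stop codon. Lpin2 holds 3 copies (0.72 per kilobase), Agpat3 holds 4 (0.669), and Dgat1 (0.53) and Dgat2 (0.442) hold 1 each. Over 16488 transcripts the median was 1.06 per kilobase, above all 5 called members but Lpin1, and 90.9% held at least 1. None of these 5 has a copy within 200 bases of the stop codon, where 39% of transcripts do. Of the members tested but not called in METTL3 HKO livers, Lpin3 holds 8 (2.49 per kilobase, 2 of them within 200 bases of the stop codon), Gpam holds 6 (0.972), and Agpat2 holds none. Mogat1, filtered out of that fit, also holds none. Methylation was not measured here.

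Per exon length, Dgat2 had the highest mean in all 4 groups, at 81.6, 119.8, 70.6 and 143.1 CPM per kilobase in labelled RPN11 HKO, RPN11 flox/flox, METTL3 HKO and METTL3 flox/flox livers. In labelled RPN11 HKO livers it was followed by Lpin1 at 76.2 CPM per kilobase, and those livers overlapped. In both flox/flox groups Lpin2 came next and Lpin1 after it, and these neighbours overlapped. In METTL3 HKO livers Agpat2 came next at 31.4 CPM per kilobase, and Lpin1 stood below Lpin2 and both AGPATs to 6.11 CPM per kilobase, apart from its neighbours. Dgat1, Gpam, Lpin3 and Mogat1 held the lowest places in every group. The ratio of Dgat2 to Dgat1 was 20.3 ± 6.55 in labelled RPN11 HKO and 33.8 ± 5.68 in RPN11 flox/flox livers, and 27.0 ± 6.17 in METTL3 HKO and 30.2 ± 2.48 in METTL3 flox/flox livers (SD, n = 4 each). With the longest transcript as the length, Lpin1 passed Dgat2 in labelled RPN11 HKO livers (132 against 111 CPM per kilobase), and Agpat2 passed Agpat3 there. Agpat2 also passed Agpat3, and Dgat1 passed Gpam, in RPN11 flox/flox livers, and Lpin2 passed Agpat3 in METTL3 HKO livers.

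Between the flox/flox livers of the lines, none of the 9 was called by edgeR, where 0.319% of all genes were. Gpam averaged 32.7 CPM in RPN11 flox/flox and 21.03 CPM in METTL3 flox/flox livers. Its log2 fold change was 0.63 ± 0.18 (SE, edgeR adjusted p = 0.115), and DESeq2 and voom called it, as did edgeR without METTL3 flox/flox liver 4. Agpat2 (log2 fold change 0.36 ± 0.11, adjusted p = 0.135) and Lpin2 (0.31 ± 0.11, adjusted p = 0.169) were higher in every RPN11 flox/flox liver than in any METTL3 flox/flox liver without being called by edgeR, and Dgat1 (-0.41 ± 0.17, adjusted p = 0.236) was lower in every one. So 2 members lay wholly above (5.11% of all genes) and 1 wholly below (4.02%). Of the 9, 6 had an unadjusted p under 0.05, where 16.5% of all genes did. These livers are the same controls as above, and line, cohort and handling cannot be told apart.

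Of the genes around the pathway, 6 lists were counted, where 4.81% of all genes were called in the RPN11 line and 30.5% for METTL3. Median log2 fold changes over all genes were 0.03 and 0.04. Levels are means ± SD (n = 4 each), and fold changes carry their SE. Other enzymes of glycerolipids and their acyl chains had 1 gene called higher and 5 lower of 18 in labelled RPN11 HKO livers (median log2 fold change -0.28). Tmem68 rose, to 22.4 ± 2.23 CPM in labelled RPN11 HKO, against 15.1 ± 1.83 CPM in RPN11 flox/flox livers (edgeR adjusted p = 0.0347). Acsl5, which activates fatty acids for triglyceride, fell to 363 ± 66.0 CPM in labelled RPN11 HKO, against 581 ± 47.4 CPM in RPN11 flox/flox livers (adjusted p = 0.0237), and Lpcat3, which puts polyunsaturated chains into phospholipid, and Lclat1 also fell. Of the same list, in METTL3 HKO livers 3 rose and 6 fell of 19 (median -0.03). Acsl4, which prefers arachidonate, reached 52.1 ± 24.2 CPM in METTL3 HKO and 8.41 ± 1.09 CPM in METTL3 flox/flox livers (log2 fold change 2.64 ± 0.31, adjusted p = 0.000548), and Acsl3 rose too, while Gyk, glycerol kinase, and Tmem86b fell. Without scaling factors 6 rose and 3 fell in METTL3 HKO livers, and 2 rose and 2 fell in labelled RPN11 HKO livers. The RPN11 counts moved with single livers: 0 genes fell without RPN11 flox/flox liver 1, 3 or 4, 1 fell without RPN11 flox/flox liver 2, 2 fell without labelled RPN11 HKO liver 1 or 2 and 2 with the replicate block, and Tmem68's call was lost in 5 of the 8 fits that leave out a liver. Without METTL3 HKO liver 1, 5 rose in the METTL3 line.

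**Figure D4:**
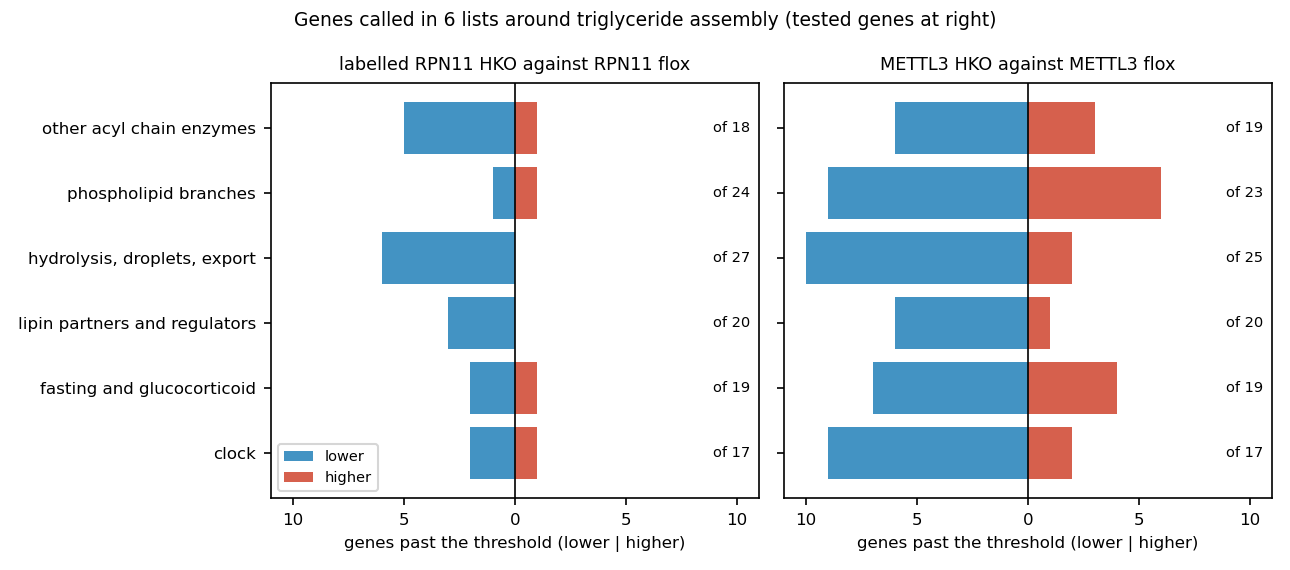
Genes called lower (left of 0) and higher (right of 0) in 6 lists of related genes, with the number tested at the right of each bar, in the RPN11 and METTL3 lines. In the METTL3 line the hydrolysis, droplet and export list has 10 lower and 2 higher of 25, and in the RPN11 line 6 lower and 0 higher of 27.

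On the branches to phospholipid, 1 gene rose and 1 fell of 24 in labelled RPN11 HKO livers (median log2 fold change -0.16). Chka, choline kinase, rose to 23.5 ± 6.80 CPM in labelled RPN11 HKO, against 10.9 ± 2.14 CPM in RPN11 flox/flox livers (edgeR adjusted p = 0.0211), and it rose in METTL3 HKO as well, to 37.3 ± 6.62 CPM, against 10.02 ± 4.37 CPM in METTL3 flox/flox livers (adjusted p = 0.00123). In METTL3 HKO livers 6 rose and 9 fell of 23 (median 0.06). Pcyt2, which makes CDP-ethanolamine, fell to 168 ± 45.4 CPM in METTL3 HKO, against 429 ± 86.1 CPM in METTL3 flox/flox livers (adjusted p = 0.00149), as did Etnk2, ethanolamine kinase, and Dgka, diacylglycerol kinase. Leaving out any 1 RPN11 flox/flox liver or labelled RPN11 HKO liver 2 left 0 genes called either way in the RPN11 line, the gene called lower was also lost without labelled RPN11 HKO liver 1 or 3, and 3 rose in METTL3 HKO livers without METTL3 HKO liver 2 or METTL3 flox/flox liver 1 or 3.

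Hydrolysis, droplet and export genes mostly fell where they were called, 6 of 27 with 0 rising in labelled RPN11 HKO (median log2 fold change -0.48) and 10 of 25 with 2 rising in METTL3 HKO livers (median -0.63). Mgll, monoacylglycerol lipase, fell to 189.5 ± 19.1 CPM in labelled RPN11 HKO, against 316 ± 13.3 CPM in RPN11 flox/flox livers (edgeR adjusted p = 0.00728), and to 69.1 ± 12.2 CPM in METTL3 HKO, against 228 ± 20.7 CPM in METTL3 flox/flox livers (adjusted p = 9.9e-05). Plin2, the droplet coat protein, fell to 288 ± 15.4 CPM in labelled RPN11 HKO, against 483 ± 47.2 CPM in RPN11 flox/flox livers. Cideb, which enlarges droplets and loads lipoproteins, fell to 57.9 ± 17.8 CPM in METTL3 HKO, against 145 ± 16.01 CPM in METTL3 flox/flox livers. Without scaling factors the METTL3 count was 4 rising and 8 falling. In the RPN11 line 1, 0 and 2 genes fell without RPN11 flox/flox livers 1, 3 and 4, and 10 fell by DESeq2 or voom. The 2 rising in METTL3 HKO livers became 0 or 1 without any 1 liver of that line other than METTL3 HKO liver 1.

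Among lipin partners and regulators of lipid synthesis, 3 fell of 20 in labelled RPN11 HKO livers (median log2 fold change -0.31), all of the SREBP pathway. Srebf1, the lipogenic transcription factor, stood at 36.4 ± 3.64 CPM in labelled RPN11 HKO and 100.5 ± 13.6 CPM in RPN11 flox/flox livers (log2 fold change of -1.45 with an SE of 0.12, edgeR adjusted p = 0.000413), and Scap and Insig1 fell. In METTL3 HKO livers 1 rose and 6 fell of 20 (median -0.31), among them the factors Mlxipl, Nr1h3, Creb3l3 and Hnf4a. Genes known to respond to fasting and glucocorticoids, as Lpin1 does, had 1 higher and 2 lower of 19 in labelled RPN11 HKO livers (median 0.12), where Tat, tyrosine aminotransferase, rose to 2467 ± 394 CPM in labelled RPN11 HKO, against 1285 ± 208 CPM in RPN11 flox/flox livers (adjusted p = 0.0111). In METTL3 HKO livers 4 rose and 7 fell of 19 (median -0.92). Fkbp5, a glucocorticoid target, fell to 41.9 ± 9.88 CPM in METTL3 HKO, against 134 ± 19.7 CPM in METTL3 flox/flox livers (adjusted p = 0.000257). Clock genes had 1 higher and 2 lower of 17 in labelled RPN11 HKO (median -0.12) and 2 higher and 9 lower of 17 in METTL3 HKO livers (median -0.79). Dbp, a clock output factor, stood at 2.21 ± 0.964 CPM in METTL3 HKO, against 56.3 ± 21.7 CPM in METTL3 flox/flox livers (adjusted p = 0.00028). Collection time is not stated, and the part of these shifts in the Lpin1 values was not tested. Without scaling factors 9 phospholipid genes rose and 8 fell in METTL3 HKO livers, 4 regulators rose and 4 fell, and 5 clock genes rose and 7 fell. Without both knockout livers numbered 4, 3 phospholipid genes and 5 regulators fell in the RPN11 line, and 2 fasting and 2 clock genes rose; in the METTL3 line 1 droplet gene rose and 2 regulators rose. In the RPN11 line 1 regulator fell without labelled RPN11 HKO liver 2 or any 1 RPN11 flox/flox liver, and no fasting gene was called lower without labelled RPN11 HKO liver 2 or 3 or any 1 RPN11 flox/flox liver. Clock genes called lower there were 0 or 1 without labelled RPN11 HKO liver 2 or any 1 RPN11 flox/flox liver, against 6 by DESeq2 and 5 by voom. The fasting gene called higher was lost without RPN11 flox/flox liver 1 or 3, and the clock gene called higher without labelled RPN11 HKO liver 2 or RPN11 flox/flox liver 1, 3 or 4. In the METTL3 line 10 regulators fell without METTL3 HKO liver 1, the 1 that rose was lost without METTL3 HKO liver 2, and 1 or 2 fasting genes rose without METTL3 flox/flox liver 1, 2 or 3. The shifts in cell type markers given above stand beside the counts of both lines.

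Over all 16 livers, Lpin1 was most like Pptc7, a mitochondrial phosphatase (Pearson r = 0.93 of log2(CPM + 0.5)), Cltb, Mbd1, Slc25a51, the mitochondrial NAD carrier, Nampt, Hopx, Alas1 and Gin1 (r = 0.92 to 0.93 among 11101 genes). These 16 livers share their group structure, so the values describe similarity across 4 groups and have no p. Slc25a51 stood at 269, 169, 74.4 and 176 CPM in labelled RPN11 HKO, RPN11 flox/flox, METTL3 HKO and METTL3 flox/flox livers, highest and lowest in the same groups as Lpin1. That match follows from picking Slc25a51 for its likeness to Lpin1 over these livers. Lasp1 was the most opposite (r = -0.94), at 69.3, 86.9, 142 and 85.5 CPM in the same order of groups. Of the genes most like Lpin1, Pptc7, Mbd1, Slc25a51 and Gin1 did not overlap between the RPN11 groups, while Cltb, Hopx, Nampt and Alas1 did. Of all genes, 7.56% lay wholly above their controls in the RPN11 line. The genes named here were picked on the same livers, so this too is a description. Labelled RPN11 HKO and RPN11 flox/flox means were close for Nampt (224 and 208 CPM) and Alas1 (666 and 647 CPM).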

How the data were processed

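Male C57BL/6 livers of 4 groups (4 each) were sequenced as total RNA after rRNA removal, per the labels' protocols. Per the submitters' processing notes, the authors used cutadapt 1.9.3, HISAT2 2.0.4 against mm10, HTSeq 0.9.1 and edgeR. Strandedness and gene annotation are not given in the sources used. The deposited whole-number counts per gene of 16973 genes were used. Another 16 columns of normalized values were not. Depth ran from 15980959 to 29029592 counts per liver, and SDs hold counting error and spread between livers.

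Each line was fitted alone with edgeR 4.0.16 in R 4.3.3 (filterByExpr, TMM, robust quasi-likelihood), with Benjamini-Hochberg adjustment over all genes and a threshold of 0.05. The difference between knockout effects was an interaction in 1 fit of 16 livers. Methods were tested on simulated data, which held neither the differences in TMM factors nor the livers that stood apart here. That test therefore does not check the calls against those features. Members and lists were chosen with earlier results of these data known. Genes named from each list are among the 4 with the lowest p in a contrast, where they passed the threshold. Genes most like Lpin1 had at least 1 CPM on average. Alternatives included DESeq2 1.42.0, voom (limma 3.58.1), other scaling and filters, the replicate block and single livers left out. Within a line, leaving out both knockout livers numbered 4 is the same fit as leaving out that line's own liver 4. Counts of alternatives for a single line therefore include that fit under both names. Lengths and coordinates are from GENCODE M21.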

Additional observations from a re-analysis of the deposited data

Results flagged for a closer look

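Of 36 groups of 4 livers checked for a single liver far from the others, chance flags about 1 in 20. Lpin2 in labelled RPN11 HKO livers had its lowest liver, liver 4, at 358 CPM, against 484 to 494 CPM in the other 3. Lpin2 in METTL3 HKO livers had its highest, liver 1, at 272 CPM, against 96.8 to 124 CPM in the others.

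For the difference between knockout effects, fitted as an interaction, 5 members were called, where 13.1% of all genes were. The Gpam call held in 15 of 24 alternatives. The RPN11 effect less the METTL3 effect was 3.24 for Lpin1, 1.27 for Lpin2, 1.03 for Dgat1, -1.40 for Gpam and -1.15 for Agpat2 (log2). The estimates of Lpin1, Dgat1, Gpam and Agpat2 had opposite signs in the lines, but only Lpin1 was called in both. Dgat1 was called in the METTL3 line alone, and Gpam and Agpat2 were called in neither line. The members were chosen with such results known, so these values are a description.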

How the results depend on the processing

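In the RPN11 line 583 genes and 2 members were called. The counts were 884 genes without scaling factors, 350 genes and 1 member without a filter, 1330 genes and 6 members with DESeq2, 1458 genes and 5 members with voom, 376 genes with the replicate block, 343 in 1 fit of all livers, and 941 genes and 4 members without both knockout livers numbered 4. Leaving out 1 liver gave 59 to 941 genes and 0 to 4 members. In the METTL3 line counts stayed within 1.5 times 3799 genes and 5 members, but which members were called changed. Without scaling factors Agpat2 (log2 fold change 0.95) and Gpam (0.84) were called higher, and Dgat1 (-0.38) and Agpat3 (-0.003) were not called. Voom also called Agpat2 and Gpam higher. Of the METTL3 fits that left out 1 liver, that without METTL3 HKO liver 1 called the most genes, 4932. For the difference (1720 genes, 5 members) voom called 3478 genes, and leaving out 1 liver gave 1095 to 2663 genes and 3 to 5 members. Between flox/flox groups (38 genes, 0 members) the counts were 66 with RLE factors, 144 without a filter, 83 at a mean of at least 5 CPM, 423 genes and 1 member with DESeq2, 174 genes and 1 member with voom, 7 with the replicate block and 1 in 1 fit of all livers; leaving out 1 liver gave 1 to 282 genes and 0 to 1 member. The cause was not tested. Replicate numbers showed no pairing of livers in the RPN11 line, where correlations of same-numbered livers were -0.05 to -0.01. In the METTL3 line these correlations were 0.05 to 0.21, and 3 of 4 livers matched best with their own number. Whether the numbers pair livers in that line was not settled. No called fold change of a member changed sign in any alternative; that of Lpin3 in the METTL3 line, which was not called, ran from -0.09 to 0.49. Counting depth limits Mogat1 most, at 4 counts over the METTL3 HKO livers.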
